A study of Homo sapiens with 8 samples.

Results

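AKIRIN1 and AKIRIN2 are the human members of the akirin family, and their promoter windows are 2 of the 19957 windows counted in this OGAP-seq study of oxidative DNA damage. OGAP-seq sequences DNA fragments pulled down because they carry oxidative base damage, next to input DNA that was not pulled down. DNA came from RPE1, an immortalised human line of retinal pigment epithelial origin, and the stated purpose was to learn what depleting NuMA (also called TDIF), a nuclear protein that gathers at spindle poles in mitosis, does to oxidative damage in the genome. There were 4 groups of 2 libraries: KD OGAP and KD input from NuMA-depleted cells that had received doxycycline, and WT OGAP and WT input from cells that had not. Doxycycline and NuMA depletion therefore cannot be told apart in any comparison of KD with WT. The construct behind the depletion, the dose and the timing are not given in the labels. Since the labels do not tell whether the 2 libraries of a group are separate cultures, p-values measure only how far these libraries spread, and that spread may be technical. AKIRIN1 was chosen by its high count in KD OGAP against WT OGAP in these same libraries, and AKIRIN2 because it is the paralogue of AKIRIN1. For AKIRIN1, every value that rests on the OGAP libraries is thus a description, given with no p-value and with nothing read from its place past a threshold. The tests below concern its input DNA, AKIRIN2, the neighbouring windows and lists of partner genes.

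Akirins are small nuclear proteins with no known DNA-binding domain, and they act as adaptors between other nuclear proteins. AKIRIN2 carries assembled proteasomes into the nucleus together with the import receptor IPO9, and in mouse macrophages it links NF-kB to the BAF (SWI/SNF) chromatin remodelling complex at inflammatory genes. Mouse Akirin1, also named Mighty, is held down by the muscle growth inhibitor myostatin and promotes the differentiation of muscle precursor cells. The measurement here is of the DNA of the promoters and says nothing of the level of either transcript or protein. Of the bases in DNA, guanine is the most readily oxidised, so the promoter sequences are shown before the counts. They are the RefSeq promoters of GRCh38.p14, 250 bases before to 50 bases after the gene start, with runs of 3 or more G or of 3 or more C in capitals. The AKIRIN1 promoter lies at chr1:38991026-38991325 on the plus strand and the AKIRIN2 promoter at chr6:87702184-87702483 on the minus strand.
AKIRIN1: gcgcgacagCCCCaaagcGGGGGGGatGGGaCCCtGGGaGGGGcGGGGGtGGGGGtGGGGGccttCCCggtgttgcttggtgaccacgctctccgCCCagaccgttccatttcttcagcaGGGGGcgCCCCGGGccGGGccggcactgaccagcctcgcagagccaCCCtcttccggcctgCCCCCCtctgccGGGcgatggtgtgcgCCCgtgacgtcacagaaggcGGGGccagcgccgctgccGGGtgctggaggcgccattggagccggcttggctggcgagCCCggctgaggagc
AKIRIN2: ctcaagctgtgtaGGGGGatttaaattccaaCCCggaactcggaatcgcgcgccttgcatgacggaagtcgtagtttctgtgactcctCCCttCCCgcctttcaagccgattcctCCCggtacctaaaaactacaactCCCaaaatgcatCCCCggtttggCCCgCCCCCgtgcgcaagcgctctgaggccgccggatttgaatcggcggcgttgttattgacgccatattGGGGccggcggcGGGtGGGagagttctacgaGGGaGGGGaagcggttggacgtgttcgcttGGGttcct
The AKIRIN1 promoter was the more GC-rich of the pair, with 74.3% G or C against 58.7% in AKIRIN2. Of 35116 RefSeq promoters, 89.0% had a lower GC content than AKIRIN1 and 49.7% a lower one than AKIRIN2. Runs of G on the printed strand were 13 in AKIRIN1, with 53 bases in all and a longest run of 7, and 7 in AKIRIN2, with 25 bases. The number of CpG dinucleotides was close in both, 27 in AKIRIN1 and 28 in AKIRIN2, against a median of 14 over all promoters. The longest stretch that the promoters had in common was 9 bases.

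Both strands of these promoters were searched for 6 patterns, with overlapping matches counted except for the last. TATAAA, the core of a TATA box, was in neither promoter and in 11.5% of all promoters. CCAAT was found 1 time in each, against 34.6% of all promoters with a match. GGGCGG, the core of a GC box, had 2 matches in AKIRIN1 and 1 in AKIRIN2, with 45.0% of all promoters holding it. TGACGTCA, the palindromic cyclic AMP response element, had 1 match in AKIRIN1, starting 38 bases before the gene start, and none in AKIRIN2; 1.8% of all promoters held it. GGGGG had 9 overlapping matches in AKIRIN1 and 2 in AKIRIN2, and 58.4% of all promoters held it. A pattern of 4 runs of at least 3 G with gaps of 1 to 7 bases, written for sequences that can fold into a G-quadruplex, had 1 match in the AKIRIN1 promoter when overlapping matches were not counted, over 31 bases from position 19 of the printed sequence, and did not match AKIRIN2; 25.0% of all promoters held it. These matches describe letters, and no binding or folding was measured.

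The 8 libraries held 449833 to 560174 promoter reads in KD OGAP, 368593 to 397173 in WT OGAP, 645276 to 683567 in KD input and 727901 to 771138 in WT input. The median window held 22 to 28 reads in KD OGAP, 17 to 18 in WT OGAP, 33 to 35 in KD input and 37 to 38 in WT input. Promoter counts of genomic DNA do not measure expression, so cell type markers and the level of NuMA could not be read from them; the chromosome content of the line was not analysed here.

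The AKIRIN1 window (ENSG00000174574, hg38 chromosome 1, 38990222 to 38992222, 2001 bp) spans the start of the gene at 38991276 with its upstream flank, and overlaps no other window. It held 37 and 29 reads in KD OGAP, 3 and 2 in WT OGAP, 28 and 32 in KD input, and 40 and 47 in WT input. As reads per 1000000 promoter reads (RPM) it held 66.05 and 64.5 in KD OGAP, 8.14 and 5.04 in WT OGAP, 41.0 and 49.6 in KD input, and 54.95 and 60.95 in WT input. Both WT OGAP libraries lay far below all 6 others, and both KD OGAP libraries lay above all 4 inputs. Group means were 65.3 ± 1.12 RPM in KD OGAP, 6.59 ± 2.19 RPM in WT OGAP, 45.3 ± 6.10 RPM in KD input and 57.95 ± 4.24 RPM in WT input (SD, n = 2 each). Level by level, KD OGAP came first, then WT input, KD input and WT OGAP, and of these neighbours KD OGAP and WT input were the closest, with no overlap; the 2 inputs did not differ beyond their spread in the test given below.

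The AKIRIN2 window (ENSG00000135334, hg38 chromosome 6, 87701210 to 87703210, 2001 bp, minus strand) spans the start of that gene at 87702233 and likewise overlaps no other window. It held 21 and 22 reads in KD OGAP, 15 and 16 in WT OGAP, 39 and 32 in KD input, and 57 and 45 in WT input. Scaled to RPM, the values were 37.5 and 48.9 in KD OGAP, 40.7 and 40.3 in WT OGAP, 57.05 and 49.6 in KD input, and 78.3 and 58.4 in WT input. The KD and WT OGAP libraries overlapped, and all 4 OGAP libraries lay below all 4 inputs. Group means were 43.2 ± 8.07 RPM in KD OGAP, 40.5 ± 0.290 RPM in WT OGAP, 53.3 ± 5.28 RPM in KD input and 68.3 ± 14.1 RPM in WT input (SD, n = 2 each). Both windows have the same length, and the paralogues differed in level most in WT OGAP. AKIRIN1 was chosen by its OGAP counts, so nothing is read from that difference.

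**Figure D1:**
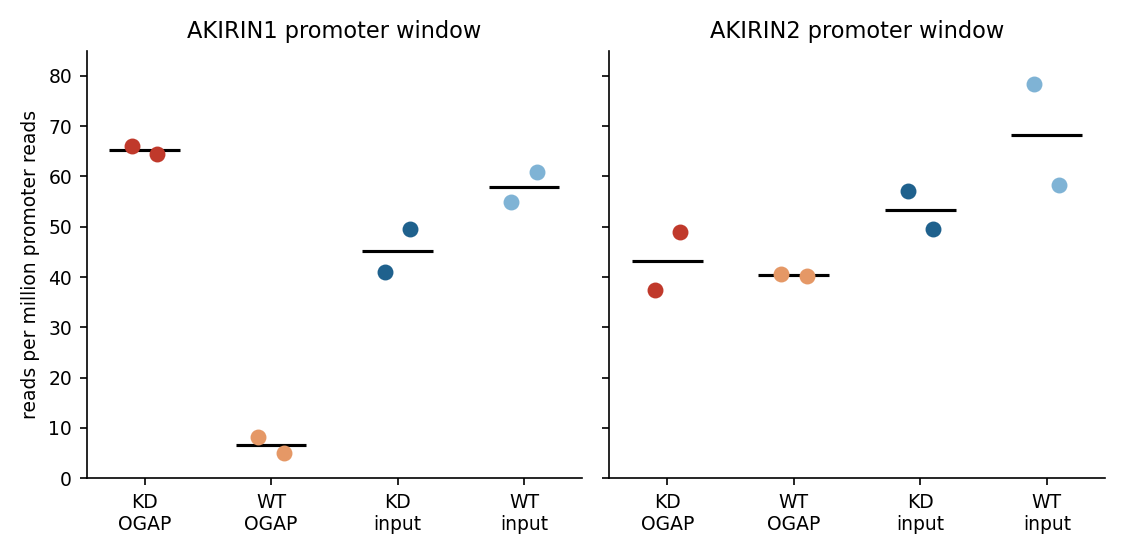
Reads per 1000000 promoter reads (vertical axis) in the AKIRIN1 (left) and AKIRIN2 (right) windows, with each library as a point and the mean of the 2 libraries of a group as a line. The AKIRIN1 points of WT OGAP, at 8.14 and 5.04, stand below every other point, while the AKIRIN2 points of KD OGAP and WT OGAP overlap between 37.5 and 48.9.

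Windows were compared with edgeR's quasi-likelihood test over the 17130 windows that passed a filter on low counts, with Benjamini-Hochberg adjusted p-values and a threshold of 0.05. KD against WT in OGAP asks whether depletion changed the pull-down, and 6 windows (0.0350%) passed, 3 in each direction. No window passed without KD OGAP replicate 1 or with DESeq2, and 11 passed without KD OGAP replicate 2. AKIRIN1 is among the 6 by the way it was chosen, and its log2 fold change was 3.23 ± 0.59 (SE). Of all tested windows 3 had a higher log2 change. Summed over libraries it held 66 KD OGAP reads against 5 WT OGAP reads, a depth-corrected ratio of 10.0 with an exact 95% interval of 4.08 to 31.8 for counting error. Such intervals take no account of how AKIRIN1 was chosen. Its KD and WT OGAP libraries did not overlap, and KD was the higher in this way in 22.2% of tested windows. AKIRIN2 had a log2 change of 0.03 ± 0.43 in the same comparison (adjusted p = 0.987, edgeR), with an approximate 95% interval of -0.80 to 0.87. The interval leaves room for changes of either sign at AKIRIN2, but not for one as large as the 3.23 of AKIRIN1; the difference between the genes was not tested.

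The input DNA of AKIRIN1 was not used to choose the gene. KD against WT in input gave a log2 change of -0.37 ± 0.37 for AKIRIN1 (adjusted p = 0.999, edgeR), with an interval of -1.10 to 0.35 and summed counts of 60 in KD and 87 in WT. AKIRIN2 gave -0.37 ± 0.34 (adjusted p = 0.999, edgeR), with an interval of -1.03 to 0.30 and summed counts of 71 in KD and 102 in WT. In both windows the 2 KD inputs lay below the 2 WT inputs without overlap, which was so in 16.8% of tested windows. No window of 17130 passed in this comparison (0%) by edgeR or DESeq2, and 756 had an unadjusted p under 0.05 by edgeR and 212 by DESeq2.

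OGAP over input shows where pulled-down DNA was above or below its own input, and within KD cells it gave 126 windows past the threshold (0.736%), and 9, 8 and 21 without KD OGAP replicate 2, KD input replicate 1 and KD input replicate 2. AKIRIN1 had a log2 value of 0.57 ± 0.38, with 2488 windows higher, and 66 KD OGAP reads stood against 60 KD input reads. At the KD input share it would have had 25.3 and 20.3 reads in the KD OGAP libraries, which held 37 and 29. KD OGAP lay above KD input with no overlap, as in 22.0% of tested windows. AKIRIN2 had -0.28 ± 0.38 (adjusted p = 0.824, edgeR; interval -1.02 to 0.47), its KD OGAP libraries lay below its KD inputs with no overlap, again as in 22.0% of tested windows, and its 43 KD OGAP reads stood against 71 KD input reads.

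OGAP over input within WT cells gave 2346 windows past the threshold (13.7%), 1584 higher (9.25%) and 762 lower (4.45%). The count fell to 1210 without WT OGAP replicate 2, 1524 without WT input replicate 1 and 890 without WT input replicate 2. AKIRIN1 had a log2 value of -3.03 ± 0.58, and 6 windows had a lower one. Its 5 WT OGAP reads stood against 87 WT input reads, a depth-corrected ratio of 0.112 with an exact interval of 0.0356 to 0.273. At the share it had in WT input, AKIRIN1 would have had 21.4 and 23.05 reads in the WT OGAP libraries, which held 3 and 2. AKIRIN2 had a log2 value of -0.67 ± 0.39 and did not pass (adjusted p = 0.243, edgeR; interval -1.43 to 0.09), with 31 WT OGAP reads against 102 WT input reads. Both genes had WT OGAP below WT input with no overlap, as 31.9% of tested windows did.

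The effect of KD on OGAP over input is the difference between the last pair of comparisons. Of 17130 windows 1 passed (0.00584%); it was AKIRIN1, and nothing is read from this, because the comparison uses the OGAP counts by which the gene was chosen. No window passed with DESeq2, or without WT OGAP replicate 2, either KD OGAP library or KD input replicate 2, and 6 and 3 did without WT OGAP replicate 1 and WT input replicate 1. AKIRIN1 lay at 3.60 ± 0.71 on the log2 scale. AKIRIN2 lay at 0.40 ± 0.55 (adjusted p = 0.888, edgeR), with an interval of -0.67 to 1.47. As point values of OGAP over input, AKIRIN1 lay above 0 in KD cells and below 0 in WT cells. AKIRIN2 lay below 0 in both. The approximate 95% interval of AKIRIN1 in KD, -0.18 to 1.31, includes 0. So do those of AKIRIN2, -1.02 to 0.47 in KD and -1.43 to 0.09 in WT.

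**Figure D2:**
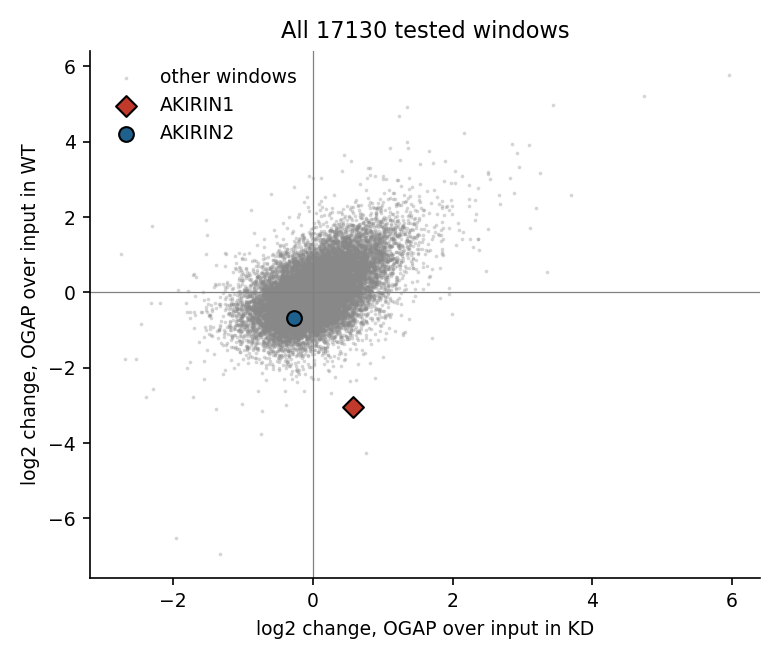
Log2 change of OGAP over input in WT (vertical axis) against the same in KD (horizontal axis) for all 17130 tested windows, with AKIRIN1 as a red diamond and AKIRIN2 as a blue circle. AKIRIN1, at 0.57 in KD and -3.03 in WT, stands outside the main cloud, and AKIRIN2, at -0.28 in KD and -0.67 in WT, lies inside it. Nothing is read from the place of AKIRIN1, which rests on the OGAP counts by which it was chosen.

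The AKIRIN1 count in WT OGAP was low for a window with this much input. Among the 10216 tested windows with at least its 147 input reads, its KD OGAP count of 66 was close to the median of 63, and 6021 windows were at or below it. In WT OGAP the median of those windows was 43 summed reads, and AKIRIN1 was the lowest at 5. The gene was chosen by these counts, and no window of the set had less input, so nothing is read from that rank. Next to AKIRIN1 in WT OGAP, with 8 reads each, were the windows of ENSG00000261884 on chromosome 16 and EBF4 on chromosome 20. ENSG00000261884 overlaps another window, and EBF4 is a transcription factor gene. EBF4 held 17 and 19 reads in KD OGAP against 3 and 5 in WT OGAP (log2 change 1.71 ± 0.57), with 59 and 41 in KD input and 55 and 77 in WT input. ENSG00000261884 and EBF4 were picked for their low WT OGAP counts, so nothing is read from the EBF4 change. These windows had as many input reads as AKIRIN1 or more, and relative to its own input the KD OGAP value of AKIRIN1 lay in the upper part of the range, with 2488 of 17130 windows higher. For AKIRIN2, of 6740 windows with at least its 173 input reads, 488 had no more than its 43 KD OGAP reads (median 66) and 1201 no more than its 31 WT OGAP reads (median 45).

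RefSeq lists 3 akirin pseudogenes, AKIRIN1P1 on chromosome 12, AKIRIN1P2 on chromosome X and AKIRIN2P1 on chromosome 4. Whether reads of the first exons were shared with these copies was not tested, and the values of both windows are uncertain to that extent.

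Within 500 kb of AKIRIN1 lay 7 other windows, of which 5 passed the count filter, and none passed the threshold in any comparison (lowest adjusted p 0.438 for KD against WT in OGAP, edgeR). Their log2 changes for KD against WT in OGAP ran from -0.60 to 0.86 with a median of 0.01, beside 0.012 over all tested windows. The closest was NDUFS5, a subunit gene of respiratory complex I at 35.1 kb, with 35 and 46 reads in KD OGAP, 41 and 50 in WT OGAP, 44 and 40 in KD input, and 49 and 56 in WT input. Its log2 change for KD against WT in OGAP was -0.60 ± 0.31 (adjusted p = 0.496, edgeR), and for OGAP over input in WT it was 0.84 ± 0.31 (adjusted p = 0.0520, edgeR). RHBDL2, a rhomboid protease gene at -49.4 kb, had 41 and 40 reads in KD OGAP, with 44 and 29 in WT OGAP (-0.30 ± 0.33). The highest of the 5 was RRAGC, a Rag GTPase gene of the amino acid branch of mTORC1 signalling at -131.4 kb, with 29 and 37 reads for KD OGAP, and 11 and 16 for WT OGAP (0.86 ± 0.41, adjusted p = 0.438, edgeR). The other tested windows, ENSG00000127603 and ENSG00000214114, had 0.26 ± 0.45 and 0.01 ± 0.43. The 2 overlapping windows at GJA9 held 0 or 1 read per library and were not tested.

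Within 500 kb of AKIRIN2 lay 10 other windows, 6 of them tested. Of the 6, 1 passed, in OGAP over input in WT, where 13.7% of all windows did: GJB7, a connexin gene at -372.9 kb, was higher in OGAP than in input in WT by 1.84 ± 0.36 (adjusted p = 0.000126, edgeR). It held 24 and 33 reads in KD OGAP, 38 and 51 in WT OGAP, 29 and 30 in KD input, and 26 and 25 in WT input. GJB7 passed without each library in turn (1.67 to 1.98). The nearest named windows, ORC3 and RARS2, overlap each other, held 0 to 3 reads per library and were not tested, nor were 2 overlapping windows at CFAP206. The other tested windows, ENSG00000164414, SPACA1, C6orf163, SMIM8 and CNR1, did not pass in any comparison.

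Summed over the neighbours of AKIRIN1, the share of promoter reads averaged 318 RPM in the 4 OGAP libraries and 319 RPM in the 4 inputs (two-sided exact permutation test, p = 0.943). Within OGAP it averaged 313 RPM in KD and 323 RPM in WT, and within input 315 RPM in KD and 324 RPM in WT (exact permutation p = 1.0 for each, where 2 libraries against 2 allow no p below 0.33). Around AKIRIN2 the sums averaged 287 RPM in OGAP and 278 RPM in input (exact permutation p = 0.686). Within OGAP they averaged 276 RPM in KD and 298 RPM in WT, and within input 292 RPM in KD and 264 RPM in WT (exact permutation p = 1.0 for each). No change of the size of that at AKIRIN1 was seen in its 5 tested neighbours. AKIRIN1 was chosen by that change, and of 17130 windows only 3 had a higher one. The neighbours therefore cannot tell whether the change is local.

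**Figure D3:**
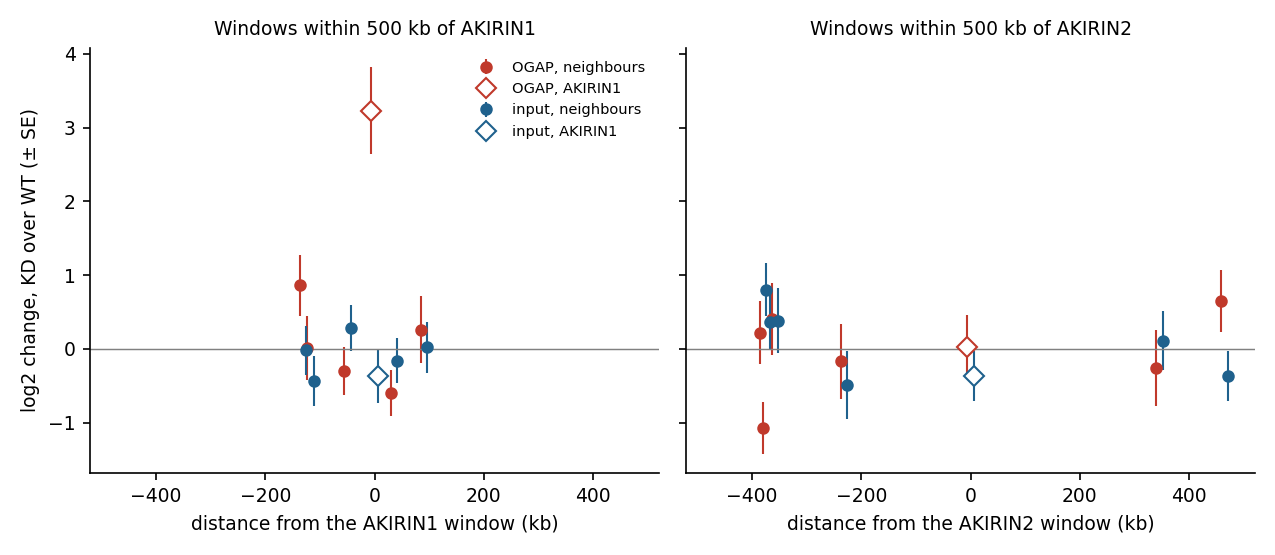
Log2 change of KD over WT (vertical axis, ± SE) of each tested window by its distance in kb from the AKIRIN1 (left) or AKIRIN2 (right) window, in OGAP (red) and input (blue); open diamonds are the akirin windows, and points are set slightly apart for sight. The OGAP value of AKIRIN1, at 3.23, stands above those of its 5 neighbours, the highest of which is RRAGC at 0.86.

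The genes with the pattern most like each akirin were found by the root mean square difference between log2 counts per 1000000 reads over the 8 libraries, each window centred on its own mean, among 13865 named windows. For AKIRIN1 these were RHEB (0.453), LBH (0.461), SLC16A10 (0.466), APPL1 (0.502) and SIX5 (0.515), against a median of 1.158 over all windows. RHEB, the small GTPase that activates mTORC1, held 29 and 33 reads in KD OGAP and 8 and 5 in WT OGAP. Its inputs held 39 and 35 in KD and 49 and 46 in WT. LBH held 45 and 25 reads in KD OGAP, 7 and 6 in WT OGAP, 60 and 38 in KD input, and 57 and 50 in WT input. SLC16A10, an aromatic amino acid transporter gene, held 41 and 29 reads in KD OGAP, 6 and 6 in WT OGAP, 46 and 38 in KD input, and 33 and 41 in WT input. All 5 had a low WT OGAP count. Their KD against WT log2 changes in OGAP, 1.43 to 2.46, were smaller than that of AKIRIN1. Nothing is read from either, since the 5 were picked for likeness to AKIRIN1 and AKIRIN1 for its high change. APPL1 overlaps another window. AKIRIN2 itself was at 1.034 from AKIRIN1, near the median. For AKIRIN2 the nearest were AMOT (0.119), NXN (0.12), CATSPERZ (0.128), ZNF584 (0.13) and CADPS (0.131), against a median of 0.471, and their KD against WT log2 changes in OGAP were 0.01 to 0.19. Likeness of counts over these libraries says nothing of shared function.

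OGAP over input moved with the GC content of promoters. Tested windows whose promoter sequence was matched were split into 5 groups of rising GC. The median log2 value of OGAP over input in KD was 0.20 in the lowest group (24.3% to 51.3% GC) and then 0.10, -0.01, -0.09 and -0.19 in the highest (72.7% to 94.0%). The same medians in WT were 0.29, 0.10, -0.07, -0.25 and -0.48. The median KD against WT change in OGAP was 0.02, -0.03, -0.01, 0.07 and 0.14 in the same order. AKIRIN1 falls in the highest group, of 2064 windows. There it had the lowest OGAP over input in WT and the highest KD against WT change in OGAP. Both ranks rest on the OGAP counts by which AKIRIN1 was chosen, so nothing is read from them. The same group held 85 windows with a higher OGAP over input in KD. AKIRIN2 falls in the second group, below its medians in both KD and WT. Over the 3325 windows with the G-quadruplex pattern the median OGAP over input was -0.13 in KD and -0.30 in WT, against 0.05 in KD and 0.02 in WT over the 7283 windows without it. What part base content plays in the AKIRIN1 value was not tested.

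**Figure D4:**
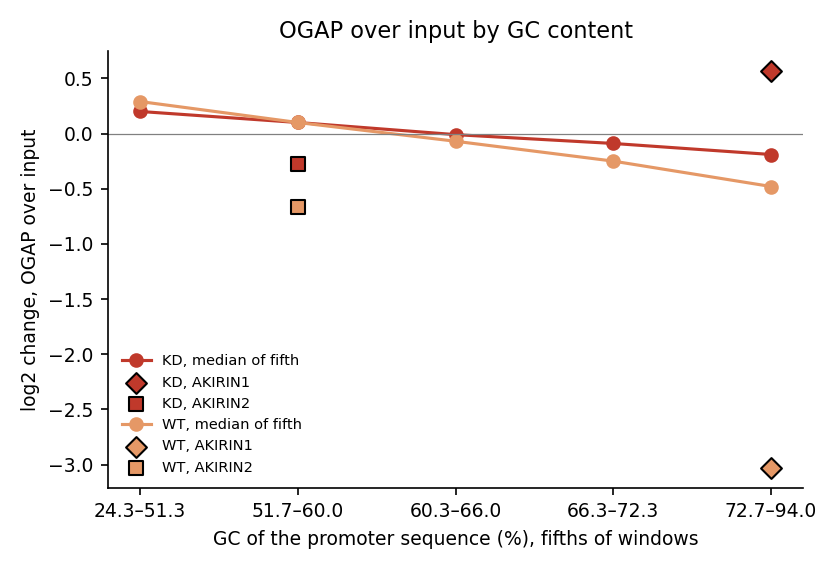
Median log2 change of OGAP over input (vertical axis) in 5 groups of windows by the GC content of their promoter (horizontal axis, %), for KD (red) and WT (orange), with AKIRIN1 as diamonds and AKIRIN2 as squares. The medians span 0.20 to -0.19 in KD and 0.29 to -0.48 in WT, while the WT diamond of AKIRIN1 lies at -3.03.

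Genes that work with the akirins were looked at as 5 lists, which were drawn up with earlier results of these data known. Over all lists, every call came from OGAP over input in WT, and no member passed in the other 4 comparisons. The first list held IPO9 and the subunits of the 20S and 19S proteasome, the cargo of AKIRIN2. Of its 28 tested windows, 5 were higher and 1 lower in OGAP than in input in WT (edgeR), beside 9.25% and 4.45% of all windows. PSMA6, a 20S alpha subunit gene, was higher by 1.55 ± 0.36 (adjusted p = 0.00131, edgeR), with WT OGAP at 47 and 43 reads against 47 and 16 for WT input. PSMB2, a 20S beta subunit gene, was higher by 1.35 ± 0.33, with WT OGAP at 40 and 49 reads against 36 and 36 for WT input (adjusted p = 0.0026, edgeR). PSMB4, PSMD4 and PSMD6 were higher by 1.29, 1.18 and 1.23. PSMC4, a 19S ATPase subunit gene, was lower, at -1.32 ± 0.42 (adjusted p = 0.0223, edgeR), with WT OGAP at 14 and 7 reads against 55 and 54 for WT input. Of these 6, PSMB2 alone passed in every fit that left out 1 library. PSMA6 fell short without WT input replicate 2 (0.94), PSMB4 without WT input replicate 1 (1.02), and PSMD4 without that library (1.08) or WT OGAP replicate 1 (1.03). PSMC4 and PSMD6 fell short without WT OGAP replicate 2 (-0.86 and 0.83) or either WT input. Without a WT input library the list's calls were 3 higher and 0 lower, and DESeq2 gave 4 and 0. For KD against WT in OGAP the lowest p of the list was that of PSMD12, a 19S lid subunit gene, with 17 and 17 reads in KD OGAP, and 30 and 29 in WT OGAP (-1.23 ± 0.40, adjusted p = 0.247, edgeR), followed by PSMB4 at -0.84 ± 0.34 (adjusted p = 0.373, edgeR). IPO9 itself did not pass, at 0.19 ± 0.53 for OGAP over input in WT and 0.23 ± 0.54 for KD against WT in OGAP (adjusted p = 0.916, edgeR).

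The BAF complex list had 17 tested windows and none passed in any comparison. SMARCD1, which encodes BAF60a, of the subunit family that ties akirin to the complex, had a log2 change of -0.19 ± 0.33 for KD against WT in OGAP (adjusted p = 0.874, edgeR), with 43 and 45 reads in KD OGAP, and 45 and 29 in WT OGAP. The lowest p-values of the list in that comparison were those of PBRM1 (0.84 ± 0.48, adjusted p = 0.533, edgeR) and BRD7 (0.68 ± 0.40, adjusted p = 0.559, edgeR), both bromodomain subunits of the PBAF form. DPF1 had the lowest p for OGAP over input in WT (0.79 ± 0.31, adjusted p = 0.0766, edgeR). Among 22 tested windows of Toll-like receptor and NF-kB genes, IKBKG, the regulatory subunit of the IKK kinase, was higher in OGAP than input in WT by 0.91 ± 0.31 (adjusted p = 0.0359, edgeR). It was the 1 call among the 22, a lower share than the 9.25% of all windows called higher. IKBKG did not pass without any one of the 4 WT libraries (adjusted p 0.0713 to 0.191, edgeR), with upper quartile scaling (0.85) or with DESeq2 (0.90). TAB1, which activates the kinase TAK1, had 0.88 ± 0.33 (adjusted p = 0.0602, edgeR). For KD against WT in OGAP, MAP3K7, the gene of TAK1 itself, had 0.91 ± 0.43 (adjusted p = 0.434, edgeR). NFKBIA, an NF-kB inhibitor gene, had 0.66 ± 0.44 there (adjusted p = 0.618, edgeR).

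The myostatin and muscle list had 15 tested windows and a median OGAP over input in WT of -0.52, beside -0.022 over all windows. Its 1 call was SMAD2, a transducer of myostatin signals, lower in OGAP than input in WT, at -1.38 ± 0.49 (adjusted p = 0.0455, edgeR), with WT OGAP at 4 and 10 reads against 23 and 53 for WT input. This is 1 of 15, where 4.45% of all windows were called lower. SMAD2 did not pass without WT OGAP replicate 1 (-0.93), WT input replicate 2 (-0.71) or either KD input library (-1.39 for each), nor in 3 of the other settings. MSTN, the myostatin gene, had 1.37 ± 0.53 (adjusted p = 0.0651, edgeR). For KD against WT in OGAP the lowest p-values were those of SMAD2 (1.29 ± 0.51, adjusted p = 0.368, edgeR) and FBXO32, a muscle ubiquitin ligase gene (1.03 ± 0.42, adjusted p = 0.377, edgeR). Of the 7 genes of 14-3-3 proteins, adaptor proteins that bind akirin in rat, YWHAE was higher in OGAP than input in WT by 1.54 ± 0.33 (adjusted p = 0.000481, edgeR), and it passed without each library in turn. This is 1 of 7, where 9.25% of all windows were called higher. YWHAH had -0.83 ± 0.39 (adjusted p = 0.145, edgeR), and for KD against WT in OGAP the values were 0.51 in YWHAH and -0.35 in YWHAE. The median of that list was -0.47 for OGAP over input in WT. In the same comparison the proteasome, BAF and NF-kB lists had 0.06, 0.04 and -0.05, and the highest GC group had -0.48. Whether GC content plays a part in the list medians was not tested. The list medians for KD against WT in OGAP were -0.13 for the proteasome, -0.01 for BAF, 0.02 for NF-kB, 0.21 for myostatin and 0.04 for 14-3-3, beside 0.012 over all windows.

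The AKIRIN1 values that follow come from the counts by which the gene was chosen, so their ranges over settings are no sign of stability. With 1 library left out, its KD against WT log2 change in OGAP ran from 2.93, without WT OGAP replicate 2, to 3.60, without WT OGAP replicate 1. It lay between 3.20 and 3.28 under other scalings, another filter, DESeq2, fewer groups and the replicate number as a term. The OGAP over input value in WT ran from -3.41 to -2.73. For AKIRIN2 the change in OGAP was 0.23 without the first KD OGAP library, and -0.16 without the second.

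**Figure D5:**
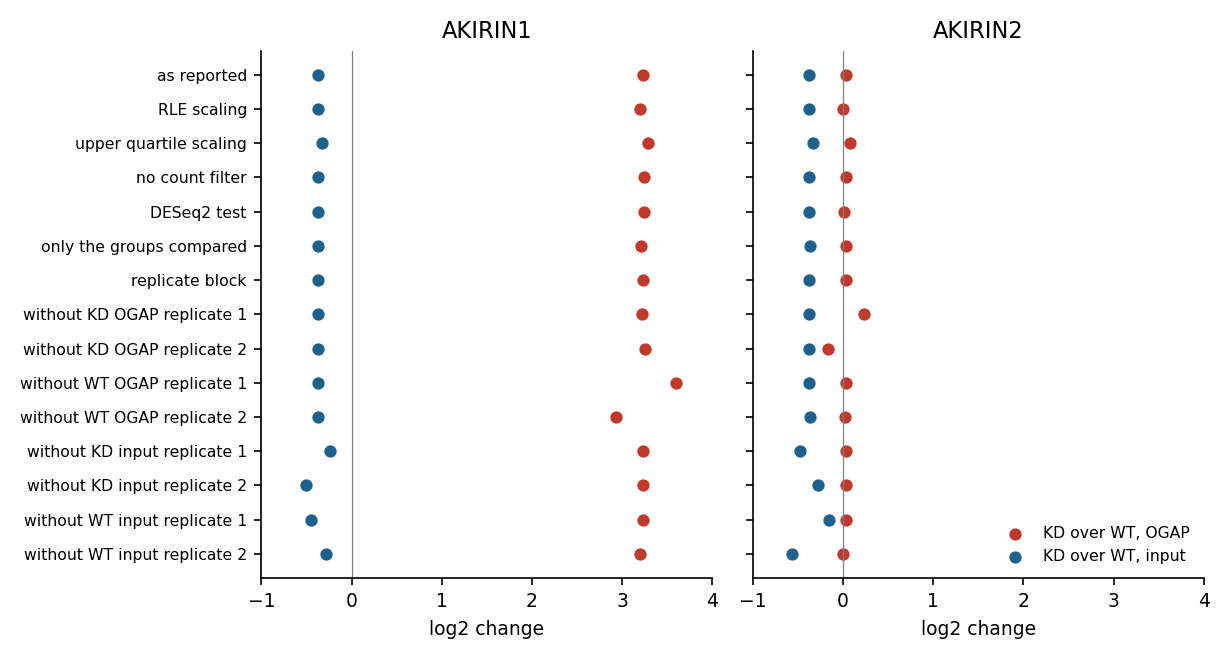
Log2 change of KD over WT (horizontal axis) of AKIRIN1 (left) and AKIRIN2 (right) in OGAP (red) and input (blue), as reported and under each other setting, 1 setting a row. The OGAP values of AKIRIN1 stay between 2.93 and 3.60 and those of AKIRIN2 between -0.16 and 0.23.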

How the data were processed

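The authors deposited whole-number counts of reads in promoter windows of 2001 bp for all 8 libraries, with Ensembl identifiers and hg38 coordinates. Per the submitters' processing notes, the tools included featureCounts, MACS2, bedtools and BWA (0.7.17-r1188). How reads in overlapping windows (3741 of 19957) were counted is not given in the sources used here. Metagene coverage files, summed over genes, were not used. A window took the symbol of a protein-coding RefSeq gene (GRCh38.p14) if that gene alone started no more than 500 bp from its centre, which named 16182 (81.1%), against 1.11% after a shift of 200 kb.

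The test was the quasi-likelihood test of edgeR 4.0.16 under R 4.3.3 (TMM scaling, filterByExpr, 4 group means over 8 libraries), with Benjamini-Hochberg adjustment over the 17130 windows kept. The SE is the log2 change over the square root of F and is approximate, as are the 95% intervals made from it. The common coefficient of variation was 0.178, and 98.4 prior against 4 residual degrees of freedom drew each window's spread toward that of all windows. RPM are reads per 1000000 promoter reads of the library. Ratios of summed counts have exact conditional binomial 95% intervals, which cover counting error only, since reads without molecular identifiers are not independent molecules. Summed neighbours were compared by exact permutation. Scripts were tested on simulated data. Neighbours are all windows within 500 kb, and named list genes are those past the threshold, those with the lowest p and those that tie a list to the akirins. The akirin pair and the lists were chosen with earlier results of these data known. Alternatives were RLE and upper quartile scaling, no count filter, DESeq2 1.42.0, only the groups compared, the replicate number as a block, neighbours within 250 kb, and each library left out.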

Additional observations from a re-analysis of the deposited data

Results flagged for a closer look

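AKIRIN1 is listed for the size of the difference in its OGAP over input between KD and WT cells. Both KD OGAP libraries (66.05 and 64.5 RPM) lay above both KD inputs (41.0 and 49.6 RPM), and both WT OGAP libraries (8.14 and 5.04 RPM) lay below both WT inputs (54.95 and 60.95 RPM). The difference between the cell states was 3.60 on the log2 scale. OGAP lay above input without overlap in 22.0% of all tested windows in KD, and below it without overlap in 31.9% in WT. The KD value itself, 0.57 ± 0.38 on the log2 scale, had an approximate 95% interval of -0.18 to 1.31, which includes 0. The difference was not tested independently of the choice of the gene, which used these OGAP libraries.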

How the results depend on the processing

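AKIRIN2 in each comparison, and AKIRIN1 in input, stayed short of the threshold under every alternative that gave an adjusted p. The AKIRIN2 change for KD against WT in OGAP turned to -0.16 without KD OGAP replicate 2 (leave-one-out range -0.16 to 0.23). The AKIRIN1 change in OGAP had a leave-one-out range of 2.93 to 3.60, and OGAP over input in WT one of -3.41 to -2.73. Counts of windows past the threshold depended more on the setting; the cause was not tested. For KD against WT in OGAP, 6 became 12 with no count filter, 0 with DESeq2, 11 with only the groups compared and 0 to 11 with a library left out. For OGAP over input in WT, 2346 became 884 with DESeq2 and 890 to 2442 with a library left out. For the same in KD, 126 became 64 with DESeq2 and 8 to 160 with a library left out. For the interaction, 1 became 3 with RLE scaling, 3 with no count filter, 0 with DESeq2 and 0 to 6 with a library left out. The summed neighbour differences changed sign with single libraries. Around AKIRIN1 they ranged from -12.2 to 13.3 RPM for OGAP minus input, -48.1 to 28.2 for KD minus WT in OGAP and -35.6 to 17.7 for KD minus WT in input. Around AKIRIN2 the same ranges were -6.75 to 28.8, -58.7 to 15.75 and -16.4 to 72.7, and the last was -12.5 with windows within 250 kb. DESeq2 gave no adjusted p for either gene in OGAP over input in KD.

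Same-numbered libraries did not deviate together (correlations of deviations -0.0397 to 0.0245), so the numbers were not taken as pairs. With the replicate block the counts were 5 for KD against WT in OGAP, 0 for input, 2181 for OGAP over input in WT, 97 in KD and 1 for the interaction; SMAD2 fell short of the threshold (-1.37, adjusted p = 0.0524, edgeR). The 2 or 3 reads of AKIRIN1 in a WT OGAP library limit the precision of its fold change. How this limit compares with the effect of the settings was not tested.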
